A study of Mus musculus with 12 samples.

Results

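Early mouse blastocysts that had received an siRNA against Tdgf1 were compared with early blastocysts that had received a negative control siRNA. The comparison uses 4 of the 12 RNA-seq libraries of the series, 2 per group, and describes the 10371 of 43472 genes whose mean over these 4 libraries was at least 1 in the deposited unit, which is 3.582 CPM (counts per 1000000 reads). All embryos were of the CD1 strain, an outbred stock, and zygotes in both groups were injected with GFP mRNA beside the siRNA, so every group carries the injection and the marker. The other 8 libraries, from morulae and late blastocysts given the same siRNAs, served here to estimate the spread, to place the early blastocysts in developmental time and to test whether a difference was particular to this stage. How many embryos went into a library, and the siRNA sequences, are not given in the sources used here. It is likewise not stated whether replicates came from separate embryos, cultures or injections. The p-values reflect the spread among these libraries alone, part or all of which may be technical.

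Tdgf1 encodes Cripto, a protein tethered to the cell surface that lets Nodal and related ligands signal through activin receptors to Smad2 and Smad3. In the early blastocyst an outer trophectoderm, which will build the placenta, encloses an inner cell mass whose cells begin to choose between the epiblast, the source of the fetus, and the primitive endoderm, the source of the yolk sac. Epiblast precursors make Nanog, Sox2 and the secreted ligand Fgf4, while Fgf receptors and ERK signalling favour Gata6 and the primitive endoderm.

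Sequencing depth was even, at 12095944 and 13770264 reads in the controls and 12188026 and 13064715 reads in the Tdgf1 siRNA libraries, and an observed 0 allows up to 3 reads, or 0.218 to 0.248 CPM. That bound accounts for counting error alone, because the cDNA was amplified and carried no molecular identifiers. Markers of adhering cells were scarce. Of 10 cumulus and granulosa cell markers 2 passed the filter (Amhr2 and Serpine2), Fshr, Has2 and Tnfaip6 were at 0 in all 4 libraries, and the summed level was 27.6 and 49.7 CPM in the controls and 22.5 and 44.2 CPM with Tdgf1 siRNA. Of 8 blood and reproductive tract markers 2 passed (Cd74 and Pecam1), Hbb-bs was at 0 in all 4, and the sum was 42.2 and 46.0 CPM against 31.8 and 58.3 CPM. The part of such cells in the results was not tested. The libraries are of whole embryos, so fewer cells of a type and less RNA per cell cannot be told apart.

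The targeted gene was low in 1 of the 2 Tdgf1 siRNA libraries. Tdgf1 (chromosome 9, 110939603 to 110946158, minus strand, GRCm38) stood at 21.7 and 13.1 CPM in control replicates 1 and 2, and at 9.27 and 15.2 CPM in Tdgf1 siRNA replicates 1 and 2, from 113 to 263 reads. The groups overlapped: the first siRNA library had 42.6% of its same-numbered control, while the library labelled Tdgf1 siRNA replicate 2 had 116.5% and lay above control replicate 2. The group difference was -0.40 on the log2 scale (SE 0.27), with an adjusted p = 1.0 in limma. For comparison, the same gene stood at 29.4 and 23.4 CPM in control morulae against 15.5 and 10.98 CPM with the siRNA, and at 97.3 and 84.6 against 49.5 and 70.8 CPM in late blastocysts. The early blastocyst difference minus the morula difference was 0.44 on the log2 scale and did not pass (limma adjusted p = 1.0). The processed pseudogene Tdgf1-ps1 had 1 to 11 reads per early blastocyst library and Tdgf1-ps2 had 0 reads. Every direction given below that uses both siRNA libraries rests in part on the one in which Tdgf1 was not reduced, and values are therefore given for each library.

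**Figure D1:**
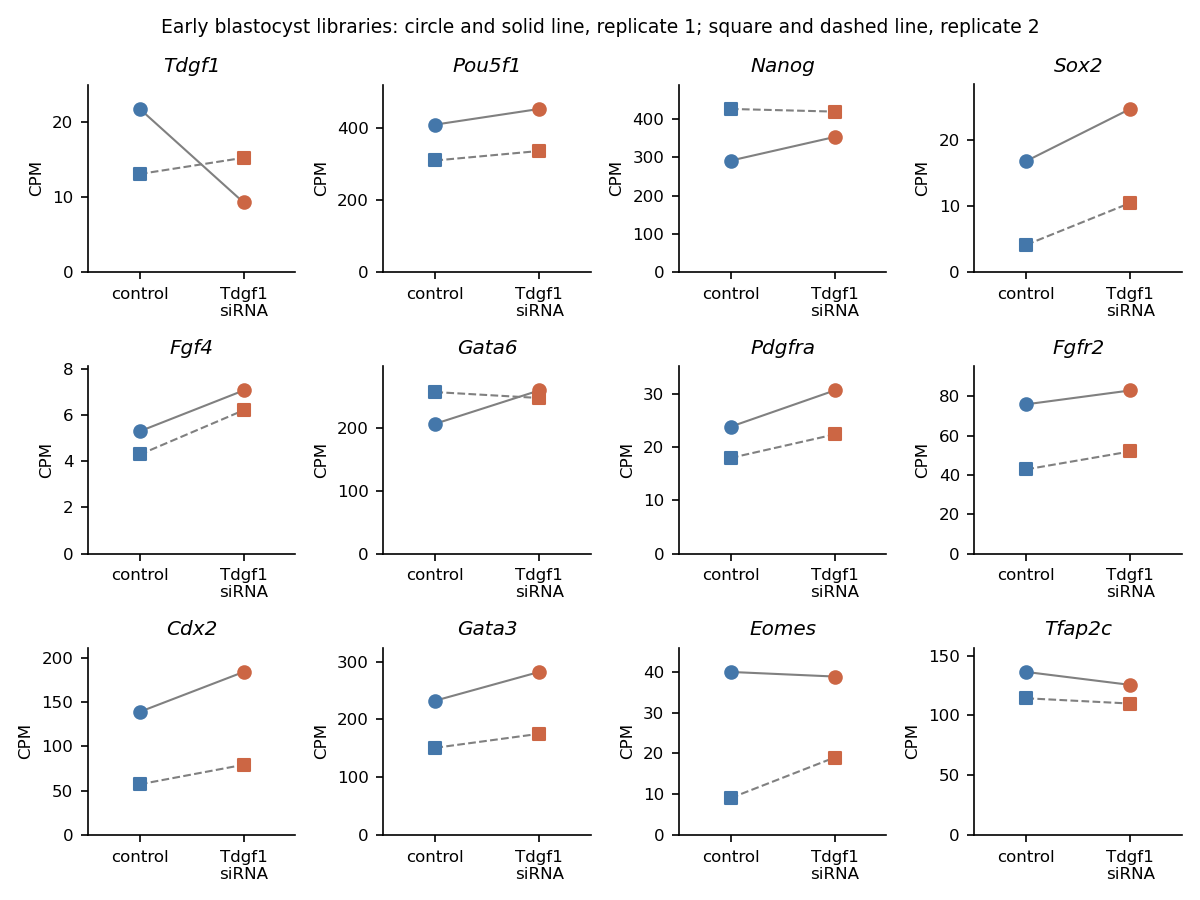
Levels of Tdgf1 and 11 lineage regulators in CPM (vertical axes, from 0) in the 4 early blastocyst libraries. Blue marks the control and orange the Tdgf1 siRNA libraries, circles and solid lines replicate 1, squares and dashed lines replicate 2. The Tdgf1 lines cross, from 21.7 to 9.27 CPM in pair 1 and from 13.1 to 15.2 CPM in pair 2, whereas for Sox2, Cdx2 and Eomes the replicates stand further apart than the groups.

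Differences between replicate numbers exceeded differences between siRNAs. Across genes the SD of the log2 difference was 0.302 in pair 1 and 0.25 in pair 2 (Tdgf1 siRNA minus its same-numbered control), against 0.423 between the 2 controls and 0.435 between the 2 siRNA libraries. On log2(deposited value + 1), a difference of 2-fold or more separated the controls from each other at 294 genes and the siRNA libraries at 301 genes. Within pairs it was reached by 46 genes in pair 1 and 29 in pair 2, and by 4 genes in both pairs, all of them lower. The added 1 shrinks the differences of low genes, so ratios of CPM can reach 2-fold at further genes, in either direction. The sign of the difference was shared by the pairs for 5270 genes (50.8%), 2660 of them higher in both (25.6% of all genes) and 2610 lower in both (25.2%). The correlation of the 2 pairs' differences across genes, which are not independent replicates, was 0.042.

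No gene passed the threshold in the comparison of group means. With limma, 0 of 10371 genes (0.0%) had an adjusted p below 0.05, and 109 had an unadjusted p below it, 47 higher (0.453%) and 62 lower (0.598%). edgeR also gave 0 genes (125 unadjusted) and DESeq2 gave 0 (136 unadjusted). Both siRNA libraries lay above both controls at 974 genes (9.39%) and below both at 1014 genes (9.78%). On log2(deposited value + 1), 6 genes were at least 1.5-fold higher in both pairs (0.0579%) and 25 at least 1.5-fold lower (0.241%). With same-numbered libraries as pairs, limma called 5 genes, all lower (0.0482%; 481 unadjusted), and edgeR with the pairs called the same 5 (473 unadjusted). These 5 are 4 pseudogenes of 1 array on chromosome 11 and the retrogene Tpm3-rs7.

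**Figure D2:**
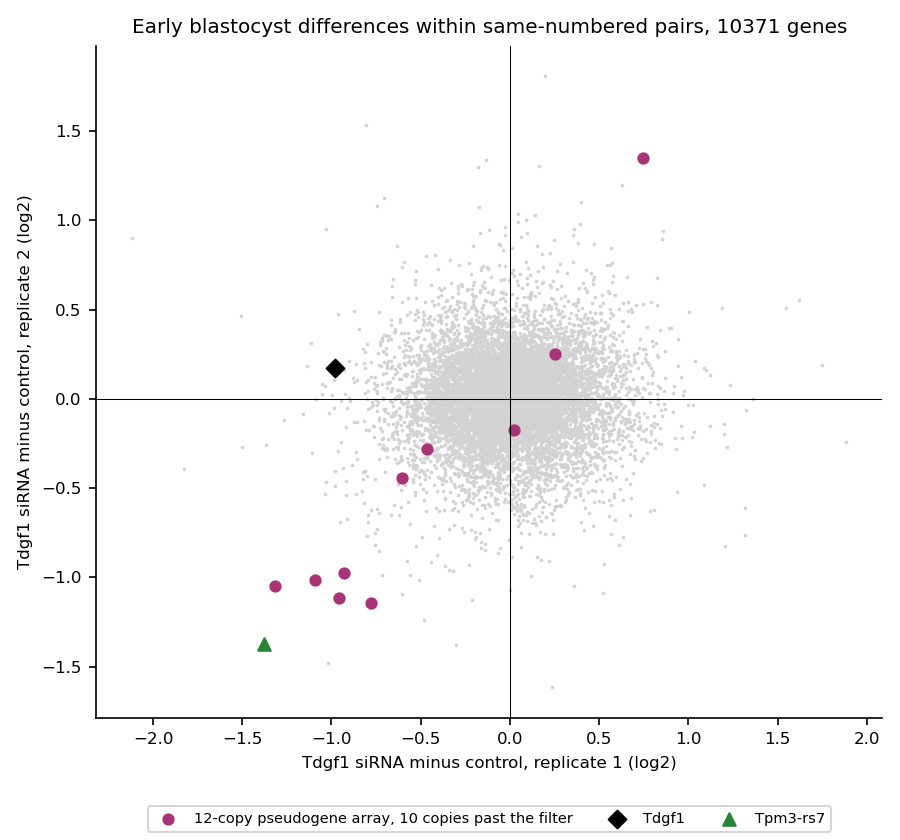
Log2 difference of each gene (Tdgf1 siRNA minus the same-numbered control) in pair 1 (horizontal) against pair 2 (vertical), on log2(deposited value + 1). Grey points are all 10371 genes, and coloured points are the array copies past the filter, Tdgf1 and Tpm3-rs7. The cloud is round, with 50.8% of genes at the same sign, Tdgf1 lies at -0.98 and 0.18, and 5 array copies and Tpm3-rs7 lie at the lower left.

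The 2 pairs stood at different points between morula and late blastocyst, and the siRNA libraries departed from their controls in opposite directions. To measure this, the log2 difference between control morulae and control late blastocysts was set to run from 0% to 100% for each gene that differed by at least 4-fold between them, a choice made after the values were seen. Over 401 such genes that were higher in late blastocysts, the median position was 55.5% in control replicate 1 and 27.8% in control replicate 2. The siRNA libraries lay between the controls, at 50.6% for replicate 1 and 32.7% for replicate 2. Thus the first siRNA library stood nearer to the morulae than its control, and the second nearer to the late blastocysts. Of these 401 genes, 29.9% were higher than control in pair 1 (median -0.14 on the log2 scale) and 66.1% in pair 2 (median 0.12). Over 181 genes that were lower in late blastocysts, the positions were 52.1% and 32.2% in the controls and 50.4% and 33.2% with the siRNA, and 55.8% were higher in pair 1 and 34.8% in pair 2. Among 4903 genes with little difference between the stages, the medians were 0.01 in each pair.

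**Figure D3:**
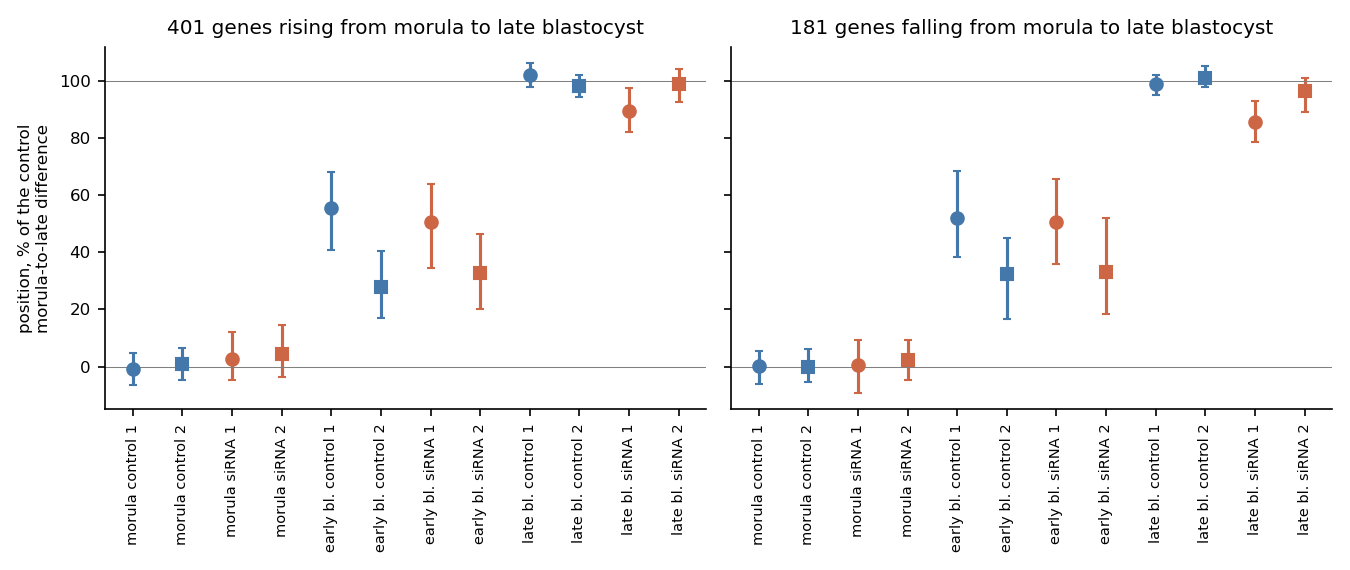
Median position of each of the 12 libraries (vertical axis, % of the log2 difference between control morulae at 0 and control late blastocysts at 100), with bars from the lower to the upper quartile over genes. The left panel holds 401 genes higher and the right panel 181 genes lower in late blastocysts. In both panels the early blastocyst libraries of replicate 1 (circles) stand above 50% and those of replicate 2 (squares) near 30%, a wider gap than that between controls (blue) and Tdgf1 siRNA (orange).

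The 4 pseudogenes called with pairs lie in a tandem array of related copies. The array lies between Alkbh5 and Llgl1 on chromosome 11 (60560924 to 60693075, minus strand, GRCm38), where the GENCODE M21 annotation has 12 short copies of 381 to 385 bases and 4 long processed pseudogenes of 1983 to 1986 bases. The other short copies share 85.4% (Gm12617) to 99.5% (Gm12627 and Gm12613) of their bases with Gm12621, and reads of one copy could therefore be assigned to another. Because most copies differ at so few places, the last 72 bases of 7 of them are shown, from the GENCODE M21 transcripts, 5′ to 3′. Capitals mark the 3 bases at which any of these 7 differ in this window, positions 328, 359 and 369 counted from 1 at the 5′ end of Gm12621.
Gm12621: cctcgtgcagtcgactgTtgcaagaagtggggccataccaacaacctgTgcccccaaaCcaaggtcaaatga
Gm12627: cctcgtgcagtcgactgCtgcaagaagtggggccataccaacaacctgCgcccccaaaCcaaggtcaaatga
Gm12619: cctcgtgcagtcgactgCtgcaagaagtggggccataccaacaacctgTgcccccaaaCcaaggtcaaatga
Gm12625: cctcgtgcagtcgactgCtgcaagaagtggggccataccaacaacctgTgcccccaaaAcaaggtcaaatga
Gm12624: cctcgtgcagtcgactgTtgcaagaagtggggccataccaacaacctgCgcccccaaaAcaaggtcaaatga
Gm12616: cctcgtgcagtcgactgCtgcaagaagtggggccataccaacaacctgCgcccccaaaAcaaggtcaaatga
Gm12615: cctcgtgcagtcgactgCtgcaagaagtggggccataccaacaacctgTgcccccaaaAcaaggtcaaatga
Gm12625 and Gm12615 share this window and differ from each other at positions 51 and 297, where the substitutions from Gm12621 are A297T in Gm12625 and G51C in Gm12615. Gm12619 differs from Gm12621 by T328C and by 3 inserted bases.

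Gm12621, the first copy with a call, stood at 49.6 and 78.4 CPM in the controls and at 17.8 and 36.1 CPM in the Tdgf1 siRNA libraries, from 217 to 1080 reads. Both siRNA libraries lay below both controls, at 35.9% of the same-numbered control in pair 1 and 46.1% in pair 2. The difference was -1.18 on the log2 scale (SE 0.32), with an adjusted p = 1.0 in limma by group and 0.0120 in limma with pairs. The same order of libraries was seen at 3 further copies that fell in the fit with pairs. Gm12627 stood at 56.6 and 84.2 against 28.0 and 41.1 CPM, Gm12625 at 35.0 and 52.7 against 14.5 and 24.3 CPM, and Gm12619 at 74.3 and 146 against 36.6 and 65.5 CPM. Their log2 differences were -0.95, -1.05 and -1.03 (SE 0.32, 0.29 and 0.31), with limma adjusted p-values of 0.0208, 0.0208 and 0.0181 with pairs and 1.0 by group. In edgeR with pairs the 4 copies had adjusted p-values of 0.00375 to 0.0195. With either pair alone none of the 4 passed in limma with pairs, the lowest adjusted p being 0.1 for Gm12621 in pair 1. Without 1 library the group difference ran from -1.63 to -0.73 for Gm12621, from -1.22 to -0.68 for Gm12627, from -1.36 to -0.74 for Gm12625 and from -1.51 to -0.56 for Gm12619. The values nearest to 0 were without Tdgf1 siRNA replicate 1 for Gm12621 and Gm12625 and without control replicate 2 for Gm12627 and Gm12619.

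The other copies did not follow as one. Gm12624 stood at 8.35 and 20.3 against 3.36 and 7.20 CPM without overlap, but its adjusted p with pairs was 0.311 in limma. Gm12615, whose printed window equals that of Gm12625, stood at 106 and 152 against 108 and 135 CPM, a log2 difference of -0.07 (SE 0.23). Gm12616 (55.7 and 111 against 35.4 and 80.7 CPM) and Gm12617, the most abundant copy (704 and 1496 against 509 and 1232 CPM), were lower in both pairs with overlapping groups. Gm12622, at the low-coordinate end of the array, went the other way, at 30.3 and 15.5 CPM in the controls against 53.2 and 45.2 CPM. Gm12628 was also higher in both pairs, at 1.98 and 3.99 against 3.04 and 5.43 CPM. The remaining copies, Gm12613 and Gm12614, had at most 1 read in each library. In all, 10 of 12 copies passed the filter, of which 7 were lower in both pairs (25.2% of all genes were) and 5 were lower without overlap (9.78% of all genes). Both counts include the 4 called copies, through which the array was picked. Copies may also share reads, so the shares of all genes are no test of the array.

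Summed over the 12 copies, array RNA amounted to 1121 and 2160 CPM in the controls and 808 and 1673 CPM with Tdgf1 siRNA, 72.1% and 77.4% of the same-numbered controls. The controls themselves differed by more than that, and the groups overlapped. Most of this sum came from Gm12617. Without it the copies amounted to 418 and 664 against 300 and 440 CPM, 71.7% and 66.3% of the same-numbered controls, again with overlap. Array RNA was abundant in morulae (2810 to 3574 CPM) and low in late blastocysts (339 to 453 CPM), and the early blastocyst control nearer to the morulae was the one with more of it. In pair 1 the siRNA library stood nearer to the morulae than its control by the genes of the developmental axis, and in pair 2 further from them. Array RNA was lower than control in both pairs. The part of developmental position in the array difference was not tested. At morula Gm12621 stood at 217 and 138 CPM in the controls and 303 and 190 CPM with the siRNA, a log2 difference of 0.46 (SE 0.32). The early blastocyst difference was lower than the morula difference by 1.64 (limma, unadjusted p = 0.00309, adjusted p = 1.0), so the contrast between stages did not pass either.

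**Figure D4:**
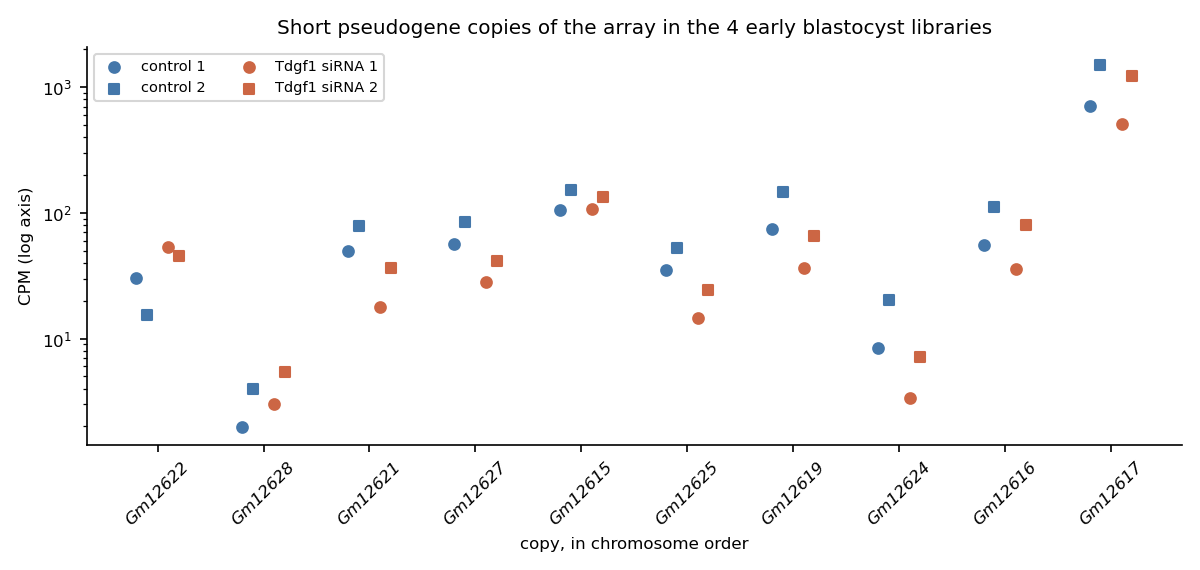
Levels of the 10 array copies past the filter in CPM (vertical axis, log scale), in chromosome order. Blue points are controls and orange points Tdgf1 siRNA libraries, circles replicate 1 and squares replicate 2. For Gm12621, Gm12627, Gm12625, Gm12619 and Gm12624 both orange points lie below both blue ones, for Gm12622 they lie above, and for Gm12615 they lie among the blue points.

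Tpm3-rs7, a retrogene of the tropomyosin gene Tpm3 on chromosome 14 (113314608 to 113316754, plus strand, GRCm38), was the remaining gene called with pairs. It stood at 205 and 66.5 CPM in the controls and at 76.7 and 23.4 CPM in the siRNA libraries. Its level differed more between replicate numbers than between groups, which overlapped, while the ratio to the same-numbered control was alike in the pairs, at 37.4% and 35.2%. The log2 difference was -1.38 (SE 0.71), with an adjusted p = 0.0120 in limma with pairs and 1.0 by group. With either pair alone the adjusted p was 0.181 and 0.437. The group difference was -0.59 without Tdgf1 siRNA replicate 2 or control replicate 1, and -2.16 without Tdgf1 siRNA replicate 1 or control replicate 2. At morula the difference was 0.53 and at late blastocyst -0.46 (SE 0.71 each). The parent gene Tpm3 stood at 724 and 683 against 849 and 793 CPM, higher in both pairs, and since the copies share sequence, reads of one could be counted at the other.

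Components of the Cripto, Nodal and activin pathway showed little difference. Of 26 listed genes 19 passed the filter, and of these 0 passed the limma threshold by group or with pairs. In both pairs 3 were higher and 4 lower, beside 25.6% and 25.2% of all genes. Without overlap 1 was higher and 1 lower, beside 9.39% and 9.78% of all genes. The list's median log2 difference was -0.02 (0.00 over all genes). The ligand Nodal had 0 to 2 reads in each library, at most 0.153 CPM, and the Nodal targets and antagonists Lefty1 and Lefty2 stood at or below 0.436 CPM. The ligand Gdf3 stood at 26.6 and 40.1 against 18.4 and 46.5 CPM, and Cfc1, the other gene of the Cripto family, at 9.18 and 3.05 against 8.53 and 3.29 CPM. Both overlapped between groups. The nuclear partner of the Smads, Foxh1, was lower without overlap (10.1 and 8.28 against 6.65 and 7.27 CPM), with a log2 difference of -0.27 (SE 0.25). The Smad corepressor gene Skil was higher without overlap, but only from 21.7 and 20.3 to 21.7 and 22.8 CPM.

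Epiblast and pluripotency genes stood mostly on the higher side. Of 24 listed genes past the filter (of 30), 11 were higher in both pairs and 2 lower in both, against 25.6% and 25.2% of all genes. The median log2 difference was 0.19 in pair 1 and 0.06 in pair 2, and 5 members were higher without overlap and 0 lower, beside 9.39% and 9.78% of all genes. No member passed a limma threshold. Without the library labelled Tdgf1 siRNA replicate 2, the first siRNA library lay above both controls at 13 members and below both at 5, beside 38.4% and 27.0% of all genes. Sox2 stood at 16.9 and 4.14 CPM in the controls and at 24.8 and 10.5 CPM with Tdgf1 siRNA, at 146.9% and 253.3% of the same-numbered controls. The groups overlapped, because the replicates differed more than the siRNAs, and the log2 difference was 0.67 (SE 0.42). Esrrb, an orphan receptor of the pluripotency network, stood at 14.3 and 8.57 against 21.3 and 13.4 CPM, at 149.2% and 156.3% of control. The Krüppel-like factor genes Klf2 (36.2 and 38.5 against 45.8 and 49.5 CPM) and Klf4 (39.9 and 38.6 against 67.8 and 40.1 CPM) were higher without overlap, Klf4 almost entirely in pair 1. Spic was likewise higher without overlap, at 189 and 234 against 262 and 253 CPM. Pou5f1, which encodes Oct4, was at 110.6% and 108.5% of control, from 410.1 and 310.3 to 454 and 337 CPM. Nanog stood at 292 and 427 against 354 and 420.2 CPM, higher in pair 1 only. With Nanog, 11 members had opposite signs in the pairs. The 2 members lower in both were Dppa2 (844 and 1004 against 791 and 997 CPM) and Dppa3 (3097 and 5401 against 3020 and 4902 CPM).

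Genes of FGF and ERK signalling, from the ligand and receptors through the kinase cascade to feedback genes and targets, also stood more often on the higher side, with members in both directions. Of 32 listed genes 28 passed the filter, and 13 were higher and 5 lower in both pairs, beside 25.6% and 25.2% of all genes. Without overlap 7 were higher and 2 lower, beside 9.39% and 9.78% of all genes, so that the lower count is near the background. The median log2 difference was 0.11 in pair 1 and 0.06 in pair 2. The ligand gene Fgf4 stood at 5.29 and 4.29 CPM in the controls and 7.06 and 6.20 CPM with the siRNA, without overlap, and its log2 difference was 0.29 (SE 0.26). Spry2, a feedback inhibitor that ERK signalling induces, stood at 9.67 and 7.99 against 17.3 and 15 CPM, 179% and 188% of control. Its log2 difference of 0.67 (SE 0.24) had an adjusted p = 1.0 in limma by group and 0.688 with pairs. Etv5, a transcription factor gene induced by FGF, stood at 29.3 and 20.5 against 38.3 and 31.2 CPM without overlap. The feedback gene Spred2 was also higher without overlap, at 9.51 and 9.08 against 12.9 and 10.1 CPM. Dusp6 (22.1 and 9.22 against 22.3 and 17.3 CPM) and Myc (28.5 and 14.2 against 28.8 and 28.2 CPM) stood higher in both pairs with overlap. Their difference lay almost entirely in pair 2, in which Tdgf1 was not reduced. Below the filter, Spry4 (2.48 and 2.83 against 3.28 and 5.20 CPM) and Etv4 (0.579 and 0.581 against 1.31 and 0.842 CPM) were higher without overlap. Dusp1, Dusp4 and Spred1 had opposite signs in the pairs, while Spry1, Ier3 and Fos stood lower in both. The feedback inhibitor gene Spry1 was lower without overlap, at 6.61 and 6.17 against 5.66 and 3.83 CPM. The target Ier3 stood at 3.39 and 6.32 against 1.89 and 4.90 CPM with overlap. Fos, below the filter, was lower without overlap, at 5.70 and 3.20 against 1.72 and 0.689 CPM. The receptor genes differed among themselves, all with overlap. Fgfr2 was higher in both pairs, at 76.0 and 42.9 against 83.0 and 52.0 CPM, and Fgfr4 lower in both, at 11.2 and 6.97 against 8.12 and 6.89 CPM. Fgfr1 (43.6 and 26.4 against 36.2 and 32.2 CPM) and Fgfr3 (3.47 and 4.79 against 3.86 and 2.22 CPM) had opposite signs in the pairs. Without the library labelled Tdgf1 siRNA replicate 2, the first siRNA library lay above both controls at 16 of the 28 genes and below both at 4, beside 38.4% and 27.0% of all genes.

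Primitive endoderm genes stood mostly on the lower side, although the regulators Gata6, Gata4 and Sox17 did not. Of 27 listed genes 16 passed the filter, and 1 was higher and 8 lower in both pairs, beside 25.6% and 25.2% of all genes. The median log2 difference was -0.15 in pair 1 and -0.11 in pair 2, and 0 members passed a limma threshold. Without overlap 0 were higher and 2 lower, and the first siRNA library alone lay above both controls at 4 members and below both at 5. Over all genes 9.78% were lower without overlap and 27.0% lay below both controls in that library, so these lower counts are near the background. Gata6 stood at 207 and 257 CPM in the controls and 260 and 248 CPM with the siRNA. Pdgfra, a receptor gene of this lineage, stood at 23.8 and 17.9 against 30.6 and 22.4 CPM. Both sets overlapped, and Gata6 was higher in pair 1 only. The later regulators Gata4 (0.661 and 0.871 against 1.31 and 0.919 CPM) and Sox17 (1.16 and 0.436 against 0.821 and 4.29 CPM) lay below the filter in this stage. Amn, which encodes a subunit of the endocytic cubilin receptor, was lower without overlap, at 8.76 and 7.48 against 2.46 and 4.44 CPM, with a log2 difference of -0.75 (SE 0.40). Runx1, the other member past the filter that was lower without overlap, stood at 10.3 and 9.30 against 6.48 and 6.97 CPM.

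Trophectoderm genes stood on opposite sides of control in the pairs. Of 29 genes past the filter (of 32), 9 were higher and 20 lower in pair 1, whereas 21 were higher and 8 lower in pair 2. Over all genes 5099 were higher and 5272 lower in pair 1, and 5322 higher and 5049 lower in pair 2. The list's median log2 difference was -0.12 in pair 1 and 0.16 in pair 2, the same signs as the genes that were higher in late blastocysts had in these pairs. Members such as Eomes and Fabp3 are themselves among those genes, so the shared signs are in part built in. Cdx2, the trophectoderm determinant, was nevertheless higher in both, at 139 and 57.3 against 184 and 79.4 CPM (132% and 139% of control). Gata3 was at 121% and 116% of control, from 233 and 151 to 282 and 175 CPM. Eomes stood at 39.9 and 9.08 against 38.8 and 19.0 CPM, and Tfap2c at 136 and 114 against 126 and 110 CPM. The groups overlapped at all 4 regulators, and the gap between replicate numbers exceeded that between groups at each. The simple epithelial keratin genes Krt8 and Krt18 stood at 1665 and 715 against 1536 and 792 CPM and at 1477 and 606 against 1262 and 584 CPM. Krt7, another keratin gene, was lower without overlap, at 17.7 and 9.59 against 4.68 and 7.43 CPM, with a log2 difference of -0.81 (SE 0.30) and adjusted p-values in limma of 1.0 by group and 0.821 with pairs. The channel gene Aqp3 (85.0 and 105 against 49.6 and 82.6 CPM), the tight junction gene Cldn6 (128 and 113 against 85.4 and 96.8 CPM) and the fatty acid binding gene Fabp3 (1812 and 1241 against 1186 and 1120 CPM) were likewise lower without overlap. With Krt7 these make 4 of the 29 genes lower without overlap, and 0 were higher, beside 9.78% and 9.39% of all genes, so that the lower count is near the background. The tight junction gene Cldn7 was lower in pair 1 only, at 604 and 437 against 328 and 468 CPM.

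Genes of the G2 and M phases stood lower by a small amount in both pairs. All 32 listed genes passed the filter, 19 were lower and 2 higher in both pairs, and 9 were lower and 0 higher without overlap, beside 25.2%, 25.6%, 9.78% and 9.39% of all genes. The median log2 difference was -0.12 in pair 1 and -0.11 in pair 2, and 0 members passed a limma threshold. The first siRNA library alone lay below both controls at 18 members and above both at 7, beside 27.0% and 38.4% of all genes. Hmmr, which encodes a spindle protein, stood at 126 and 124 against 79.3 and 105 CPM, with a log2 difference of -0.44 (SE 0.17). Prc1, needed for the central spindle, stood at 227 and 229 against 180.0 and 189 CPM. The kinetochore motor gene Cenpe stood at 193 and 203 against 164 and 167 CPM. Both siRNA libraries lay below both controls at these genes. Cenpf overlapped between groups, at 129 and 98.0 against 115 and 56.6 CPM. The DNA replication and G1/S list had 6 genes higher and 8 lower in both pairs, of 29, beside 25.6% and 25.2% of all genes, and a median of -0.01.

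Genes of protein folding stood mostly on the lower side in both pairs, and those of sterol synthesis in pair 1. Of 21 endoplasmic reticulum chaperone and unfolded protein response genes past the filter, 15 were lower in pair 1 and 15 in pair 2, with 11 lower and 2 higher in both (25.2% and 25.6% of all genes). Their medians were -0.25 in pair 1 and -0.08 in pair 2, and 4 were lower and 2 higher without overlap (9.78% and 9.39% of all genes). The first siRNA library alone lay below both controls at 13 of them and above both at 5, beside 27.0% and 38.4% of all genes. The chaperone gene Hsp90b1 stood at 409 and 445 against 247 and 367 CPM, and the disulfide isomerase gene Pdia3 at 322 and 310 against 184 and 298 CPM. Of 23 sterol synthesis genes 19 were lower in pair 1 and 10 in pair 2, with medians of -0.21 and 0.02. In both pairs 10 were lower and 4 higher, beside 25.2% and 25.6% of all genes. Without overlap 6 were lower and 1 higher, beside 9.78% and 9.39% of all genes. Sqle, which makes the sterol precursor squalene epoxide, stood at 68.1 and 67.9 against 40.1 and 57.7 CPM, and Ebp, a sterol isomerase gene, at 125 and 138 against 75.6 and 113 CPM. Phgdh, the first enzyme of serine synthesis and a target of the stress factor ATF4, was lower without overlap, at 208 and 191 against 133 and 158 CPM, a log2 difference of -0.45 (SE 0.16). The ATF4 list as a whole had 4 genes higher and 5 lower in both pairs, of 20, beside 25.6% and 25.2% of all genes. Without overlap 2 of its genes were higher and 5 lower, beside 9.39% and 9.78% of all genes. None of these genes passed a limma threshold.

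Genes that answer to the injected RNA or to damage were examined in the same way. Of 30 interferon and double-stranded RNA response genes 7 passed the filter, and Ifit1, Ifit3, Tlr3 and Rsad2 were at 0 in all 4 libraries. The summed level of the list was 160 and 129 CPM in the controls and 122 and 169 CPM with the siRNA. All 16 genes of the RNA interference machinery passed the filter, with 3 higher and 6 lower in both pairs, beside 25.6% and 25.2% of all genes. Without overlap 1 was higher and 1 lower, beside 9.39% and 9.78% of all genes. Ago2, which encodes the protein that cuts siRNA targets, was higher without overlap, at 180.3 and 261 against 311 and 277 CPM, at 172% and 106% of control, with a log2 difference of 0.43 (SE 0.21). Of 23 p53 target and apoptosis genes 5 were higher and 7 lower in both pairs, beside 25.6% and 25.2% of all genes. The list's medians were 0.02 in pair 1 and -0.20 in pair 2. Without overlap 2 of its genes were higher and 3 lower, beside 9.39% and 9.78% of all genes. The p53 target Trp53inp1 stood at 41.3 and 69.1 against 34.1 and 39.8 CPM, lower without overlap. No member of these lists passed a limma threshold.

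**Figure D5:**
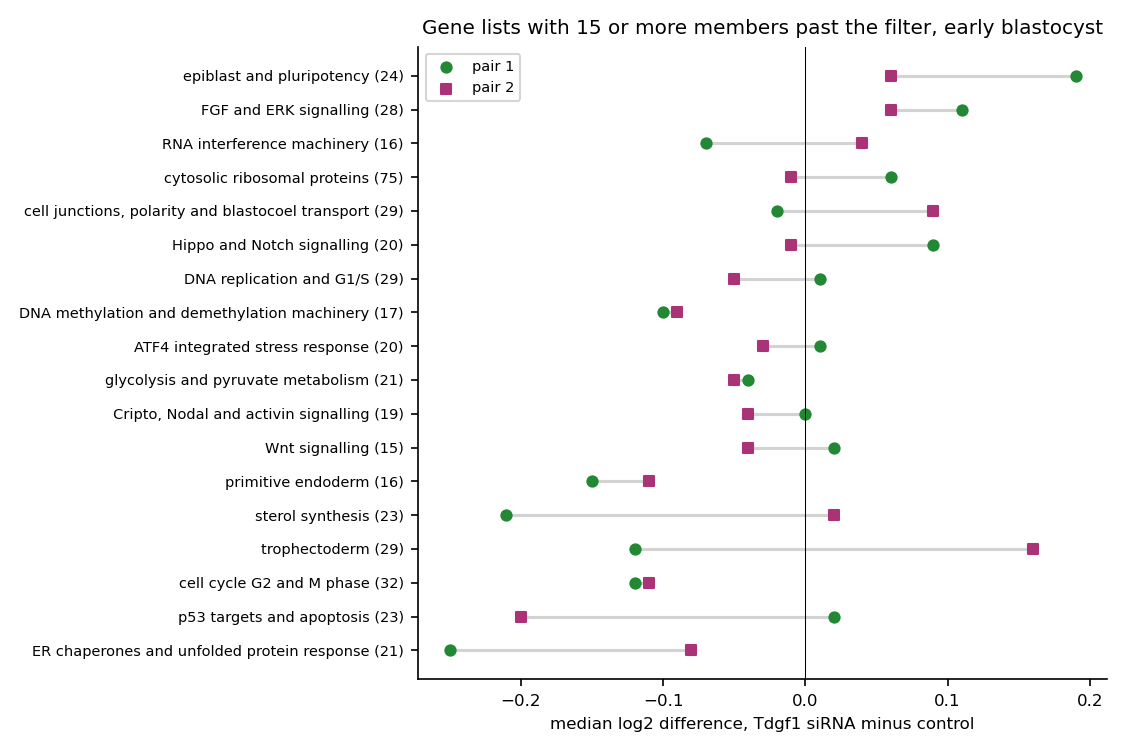
Median log2 difference (Tdgf1 siRNA minus the same-numbered control, horizontal axis) of each gene list with 15 or more members past the filter, with that number in brackets. Green circles are pair 1 and purple squares pair 2. The epiblast and FGF lists lie above 0 and the G2 and M phase list below 0 in both pairs, whereas the trophectoderm list lies at -0.12 in pair 1 and 0.16 in pair 2.

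Single genes with the smallest unadjusted p and the same sign in both pairs were of modest size. On the higher side Dap, a regulator of autophagy, stood at 88.1 and 91.7 CPM in the controls and 131 and 140.1 CPM with the siRNA (149% and 153% of control). Its log2 difference of 0.57 (SE 0.15) had an adjusted p = 1.0 in limma by group and 0.311 with pairs, and at morula and late blastocyst the difference was 0.03 and 0.08. The Pramel gene Pramel5 stood at 374 and 393 against 531 and 514 CPM. The noncoding genes Gm29562 (30.7 and 48.9 against 74.5 and 71.0 CPM) and Gm10244 (276 and 332 against 413 and 412 CPM) were also higher, Gm10244 being annotated as antisense, so that reads of a partner gene cannot be told apart. The histone gene Hist1h2ae stood at 8.93 and 12.6 against 19.0 and 26.5 CPM, the transcription factor gene Msc at 37.3 and 23.4 against 57.1 and 42.2 CPM, and Lurap1l at 18.4 and 6.90 against 30.4 and 20.4 CPM. The controls and siRNA libraries of these genes did not overlap. By size within pairs, Tat, which encodes tyrosine aminotransferase, stood at 29.4 and 20.9 against 56.2 and 43.5 CPM, and Cdc42ep3, an effector of the GTPase Cdc42, at 20.8 and 19.2 against 39.5 and 32.8 CPM.

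On the lower side, outside the array, the genes with the smallest unadjusted p were weakly expressed. Filip1l stood at 6.04 and 6.03 against 1.40 and 2.37 CPM, C330021F23Rik at 7.03 and 4.94 against 2.05 and 1.76 CPM, and 2210013O21Rik at 6.37 and 6.17 against 2.13 and 2.14 CPM. Gm17092, an antisense transcript, stood at 17.0 and 14.2 against 8.45 and 7.96 CPM, and Gm9 on the X chromosome at 9.34 and 13.7 against 5.66 and 3.75 CPM. Gm10320 was the lowest of these relative to control in pair 2, at 9.18 and 6.61 against 2.71 and 0.0765 CPM, the last from 1 read. Both siRNA libraries lay below both controls at each of these genes, and each had an adjusted p = 1.0 in limma by group and at least 0.0862 with pairs.

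Several pseudogenes, a zinc finger gene and Spp1 were among the genes on which the pairs disagreed most. The pseudogene Gm3608 was lower in pair 1 and higher in pair 2, at 24.1 and 50.5 CPM in the controls against 2.79 and 97.3 CPM. Spp1, which encodes the secreted adhesion protein osteopontin, stood at 51.3 and 6.17 against 27.8 and 24.7 CPM, 54.2% and 399% of control. In the opposite sense, Zfp820 stood at 37.5 and 93.0 against 99.0 and 59.6 CPM, and the pseudogenes Gm8822 and Rpsa-ps10 at 16.3 and 15.8 against 69.8 and 12.9 CPM and at 79.5 and 151 against 204 and 87.9 CPM. On log2(deposited value + 1), 9 genes were at least 1.5-fold higher in pair 1 and lower in pair 2, and 10 the reverse. Beside these, 6 genes were that much higher in both pairs and 25 that much lower.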

How the data were processed

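The authors deposited 1 table of 43472 genes by 12 libraries under RPKM headings. Every column, however, sums to 279173.646, and 100.0% of values are whole multiples of 1 step per library (tolerance 0.01 reads), the same for all genes. The deposited values are thus CPM divided by 3.582, from which CPM and whole reads were recovered. The test planned for the deposited unit was kept. The submitters' processing notes name HISAT2 2.1.0, Cufflinks, HTSeq, edgeR and mm10, without roles. The labels' protocols name a low-input full-length cDNA kit and no strand, so overlapping and antisense genes cannot be separated. Of the deposited gene names, 27 had become dates and were kept so.

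The main test was limma 3.58.1 (trend) in R 4.3.3 on log2(deposited value + 1), which understates changes of low genes, over genes with a mean of at least 1, with all 12 libraries and 6 group means (6 residual and 7.49 prior degrees of freedom). Benjamini-Hochberg adjustment was used at a threshold of 0.05. edgeR 4.0.16 (quasi-likelihood) and DESeq2 1.42.0 were run on the recovered reads. These fits, the limma fit and the fits with pairs were tested on simulated data. The simulated libraries held no effect of replicate number, so that test cannot vouch for the pairing. Deviations of same-numbered libraries from group means correlated at 0.468 (morula), 0.599 (early) and 0.105 (late blastocyst). The numbers were therefore taken as pairs, from the data and not from the labels, and the fit with pairs as a block (3 residual and 13.7 prior degrees of freedom) is given where it changes a call. Replicates differed beyond read sampling (chi-square per gene 43.7 and 51.4). Of the tested genes 9875 (95.2%) matched GENCODE M21 (GRCm38), the source of coordinates and transcript sequences. Alternatives were another pseudocount, filter and normalization, 4 libraries only, the count tests, the block and leaving out each library. Python 3.11.15 made tables and plots.

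Members and gene lists were chosen with earlier results of these data known. Named genes are Tdgf1 and 13 lineage regulators, genes called with or without pairs, per direction the 8 with the smallest unadjusted p and the 6 with the largest smaller within-pair difference among those of 1 sign, 3 per list by size, and 8 with the most opposed pairs. Not all are printed. The other array copies, Tpm3, Krt8, Krt18, Klf2, Spic, Cenpe, Fabp3, Gdf3, Cfc1, Skil, Spry1, Spred1, Spred2, Dusp1, Dusp4, Dusp6, Ier3, Fgfr3, Fgfr4, the Tdgf1 pseudogenes and genes below the filter were chosen after their values were seen, as were the array and the developmental axis. Runx1, Dppa2 and Dppa3 were also chosen in that way.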

Additional observations from a re-analysis of the deposited data

How the results depend on the processing

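The count of 0 genes past the threshold by group held with another pseudocount (0.1), no filter, a filter at a mean of 5, quantile normalization, 4 libraries only, edgeR, DESeq2 and without each library (0 to 0). With the replicate block it became 5 in limma and 5 in edgeR, and with the block and pair 1 of early blastocyst only it was 3 (Gm3608 and Adh1 lower, RP23-81C12.2 higher), against 0 with pair 2 only. The pairing changed no other call. Genes at an unadjusted p below 0.05 numbered 109 by group, 55 with the stricter filter, 66 with 4 libraries only, 180 with quantile normalization, 597 with no filter, 481 with the block, 473 in edgeR with it, 629 and 247 with pair 1 or pair 2 only, and 192 to 650 without 1 library. The groups did not overlap at 1988 genes, at 1194 with the stricter filter, and at 6792 without Tdgf1 siRNA replicate 2, where 1 library faces 2. The Tdgf1 difference was -0.70 to -0.10 without 1 library and 0.18 with the block and pair 2 only.

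Directions of uncalled genes turned as follows, on the log2 scale. Without 1 library the values ran for Pou5f1 from -0.08 to 0.34, Sox2 -0.03 to 1.37, Nanog -0.15 to 0.40, Gata6 -0.02 to 0.29, Cdx2 -0.19 to 1.04, Eomes -0.49 to 1.29, Gata3 -0.10 to 0.58, Tfap2c -0.21 to 0.04, Fgfr1 -0.32 to 0.33, Fgfr2 -0.20 to 0.58, Fgfr4 -0.41 to 0.07, Ier3 -0.60 to 0.03, Gdf3 -0.73 to 0.46, Cfc1 -0.48 to 0.46, Krt8 -0.59 to 0.62, Krt18 -0.78 to 0.50 and Cenpf -0.95 to 0.02. In the array they ran for Gm12616 from -1.08 to 0.03, Gm12615 -0.33 to 0.18 and Gm12617 -1.01 to 0.26. Among genes with opposed pairs they ran for Gm3608 from -2.60 to 1.38, Spp1 -0.88 to 1.61, Gm8822 -0.26 to 1.90, Zfp820 -0.26 to 0.97 and Rpsa-ps10 -0.31 to 0.87. With the replicate block and pair 1 only, values were Eomes -0.04, Fgfr1 -0.25, Fgfr3 0.08, Gm12615 0.02, Spp1 -0.81 and Krt8 -0.12. With pair 2 only they were Nanog -0.02, Gata6 -0.05, Cldn7 0.10, Gm3608 0.90, Gm8822 -0.24, Zfp820 -0.61, Rpsa-ps10 -0.76, Gdf3 0.20 and Cfc1 0.05. In edgeR they were Fgfr1 -0.04, Gm3608 0.45, Spp1 -0.10 and Krt8 -0.04, in edgeR with the block Fgfr1 -0.01, in DESeq2 Fgfr1 -0.03, Gm3608 0.46, Spp1 -0.09 and Krt8 -0.03, and with quantile normalization Fgfr1 -0.01 and Cfc1 0.01. The cause was not tested. Of 220 list medians under the alternatives, 61 moved by more than the SD of the 2 pairs' medians. Genes near the filter rest on few reads, which limits their precision.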

Other observations

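Further gene groups were measured in the same way. Of 75 cytosolic ribosomal protein genes past the filter, 20 were higher and 12 lower in both pairs, with a median log2 difference of 0.01, and 7 were higher and 0 lower without overlap, beside 9.39% and 9.78% of all genes, so that the higher count is at the background. Of 21 glycolysis and pyruvate metabolism genes 4 were higher and 9 lower in both pairs, of 29 junction, polarity and blastocoel transport genes 10 and 6, of 20 Hippo and Notch genes 5 and 2, of 15 Wnt genes 4 and 4, and of 17 DNA methylation and demethylation genes 2 and 5. Over all genes 25.6% were higher and 25.2% lower in both pairs. The medians in pair 1 and pair 2 were -0.04 and -0.05 for the glycolysis list and -0.10 and -0.09 for the DNA methylation list. Of 8 Pramel genes past the filter 3 were higher and 0 lower in both pairs, and of 5 transcripts of the 2-cell stage 1 and 1. The 13 mitochondrially encoded genes are listed at 0 in every library. Of 30 maternal oocyte transcripts 6 passed the filter and all 6 were lower in pair 1, while 4 of them were higher in pair 2. No member of these lists passed limma with or without pairs.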
